A study of Mus musculus with 2 samples.

Results

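MHC class I molecules carry peptides of the cell's own proteins to the surface, and 10 genes that make and load them were examined in wild-type mouse B cells. The members were H2-K1, B2m, Tap1, Tap2, Tapbp, Psmb8, Psmb9, Psmb10, Psme1 and Psme2, and every probe set was taken whose annotation named exactly 1 of them. This gave 17 of the 20380 probe sets that name a single gene, and they covered 9 of the 10 genes. Psme2 had no such probe set, because the one that names it also names Psme2b.

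The samples were 2 arrays of wild-type cells without genetic modification, sorted by flow cytometry from mouse spleen as IgM+IgD+. The series set such cells against cells deficient in serum response factor, which were not analysed here, so no comparison between genotypes was made. The labels give no strain, age or sex, and do not say whether both samples came from separate mice. The replicate numbers are only names. Of 10 measured B cell markers 9 lay above the expression floor (defined below) on both arrays, against 7 of 46 markers of other cell types. The B cell marker that did not was Pax5, with 21.5 and 15.6 on replicates 1 and 2, below both floors. Cd79a was above both floors but gave 2931 on replicate 1 and 192 on replicate 2. The 7 of other cell types were Zap70, Csf1r, Lyz2, S100a9, Ngp, Xbp1 and Irf4. The T cell receptor gene Cd3e gave 31.1 and 16.1 on replicates 1 and 2, below both floors. The dendritic cell integrin gene Itgax gave 148 and 109.9, above the floor of replicate 2 only. Others above that floor only included Jchain, with 94.7 and 454, and S100a8, with 164 and 449.9. The arrays differed in the sex-linked gene Xist, whose brighter probe sets gave 1025 and 740.4 on replicate 1 and 5.70 and 15.3 on replicate 2. They differed too in the Y-linked Eif2s3y, with 3.40 on replicate 1 and 249 on replicate 2. Of the other Y-linked genes measured, Kdm5d gave 88.4 and 176 by its brightest probe set, and Uty was below both floors. The source of these differences was not tested. The arrays also differed in the 3′ to 5′ signal ratio of control mRNAs. It was 3.57 on replicate 1 and 8.15 on replicate 2 for Actb, and 1.31 and at least 8.63 for Gapdh.

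Class I presentation begins in the cytosol, where proteasomes cut proteins to peptides. In lymphocytes and in cells exposed to interferon-γ, 3 catalytic subunits, encoded by Psmb8, Psmb9 and Psmb10, take the places of their constitutive counterparts Psmb5, Psmb6 and Psmb7 and form the immunoproteasome. The PA28 activator, built from the products of Psme1 and Psme2, caps the particle. The transporter TAP, a dimer of TAP1 and TAP2, pumps peptides into the endoplasmic reticulum, where tapasin (Tapbp) bridges it to a class I heavy chain such as H2-K, bound to β2-microglobulin (B2m).

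Most of these genes lie together in the MHC. In the RefSeq annotation of GRCm38.p6, Psmb9, Tap1, Psmb8 and Tap2 were consecutive protein-coding genes on chromosome 17, which also holds H2-K1 and Tapbp. B2m lies on chromosome 2 and Psmb10 on chromosome 8. Psme1 and Psme2 lie on chromosome 14 with only Emc9 between them. Promoter windows of 300 bases (250 before to 50 after the annotated start) were found in RefSeq for 9 of the 10 genes. Those below are shown because H2-K1 and B2m encode both chains of the class I molecule, because Tap1 and Psmb9 share a promoter but had differences of opposite sign, and because Psme1 had the largest difference among members judged by their brightest probe sets. Capitals mark every match, on either strand, to 5 motifs. These were the interferon regulatory factor (IRF) repeat GAAANNGAAA, the gamma-activated site TTCNNNGAA, the CCAAT box CCAAT, the cyclic AMP response core TGACG and the NF-kB consensus.
H2-K1 promoter, chr17:34000284-34000583, minus strand: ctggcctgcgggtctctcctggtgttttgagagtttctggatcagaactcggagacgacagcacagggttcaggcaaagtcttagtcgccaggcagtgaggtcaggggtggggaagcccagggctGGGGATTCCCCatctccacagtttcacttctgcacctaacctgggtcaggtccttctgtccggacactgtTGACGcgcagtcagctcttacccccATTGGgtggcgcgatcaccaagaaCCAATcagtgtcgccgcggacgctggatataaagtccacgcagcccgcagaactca
B2m promoter, chr2:122147437-122147736, plus strand: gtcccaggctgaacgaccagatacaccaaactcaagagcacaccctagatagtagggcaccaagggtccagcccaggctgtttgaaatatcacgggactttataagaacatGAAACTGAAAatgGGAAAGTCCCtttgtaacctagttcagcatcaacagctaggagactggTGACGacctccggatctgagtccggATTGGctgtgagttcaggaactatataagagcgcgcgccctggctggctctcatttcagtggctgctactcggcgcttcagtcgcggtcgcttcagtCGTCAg
Tap1 promoter, chr17:34187306-34187605, plus strand: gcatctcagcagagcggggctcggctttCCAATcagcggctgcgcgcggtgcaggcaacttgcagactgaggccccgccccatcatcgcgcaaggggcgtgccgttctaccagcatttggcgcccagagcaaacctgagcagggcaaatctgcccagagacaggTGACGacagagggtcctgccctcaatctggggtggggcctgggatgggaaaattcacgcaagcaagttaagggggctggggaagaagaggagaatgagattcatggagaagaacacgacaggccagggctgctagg
Psme1 promoter, chr14:55578244-55578543, plus strand: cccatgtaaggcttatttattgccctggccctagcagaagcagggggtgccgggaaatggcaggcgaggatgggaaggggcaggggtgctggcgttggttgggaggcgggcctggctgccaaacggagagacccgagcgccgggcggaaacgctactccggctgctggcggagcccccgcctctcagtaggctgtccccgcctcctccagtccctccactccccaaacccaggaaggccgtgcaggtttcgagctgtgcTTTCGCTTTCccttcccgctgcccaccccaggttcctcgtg
In the B2m window an IRF repeat began 139 bases before the start and an NF-kB match 126 bases before it. The H2-K1 window, 1 of the pair that RefSeq gives, held NF-kB matches in overlapping registers, each of which counts on both strands. The IRF repeat of Psme1 read on the strand opposite to the one printed, and its first printed base was base 10 of the transcript. Tap1 and Psmb9 are read in opposite directions, and their windows overlapped in 275 of 300 bases, so the Tap1 sequence is also most of the Psmb9 promoter. Of 32851 RefSeq promoter windows 3.44% held the IRF repeat, 4.51% the NF-kB consensus, 8.30% the gamma-activated site, 20.8% the cyclic AMP response core and 37.4% the CCAAT box. Among all member windows, shown or not, the IRF repeat was found only for B2m and Psme1, and the NF-kB consensus only for B2m and H2-K1. The gamma-activated site was found only in the Psmb8 window, and the Psmb10 window held none of the motifs. A match describes the letters only.

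Signals are MAS5 intensities in arbitrary units on a linear scale. They are compared here for the same probe set on both arrays and never between genes, since affinities differ from probe to probe. As an expression floor, 99 probe sets were taken for 64 genes known from other organs, such as liver, brain and testis, and their 90th percentile came to 184 on replicate 1 and 95.5 on replicate 2. Each difference is the log2 signal on replicate 2 less that on replicate 1. With 2 samples of 1 group no difference could be tested, and the spread between them, pooled over all probe sets above both floors, was 0.65 on the log2 scale, or 1.57-fold.

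All 9 measured genes were above the floor on both arrays through at least 1 probe set, against 27.9% of all 12393 genes. Of their 17 probe sets 13 were above both floors, against 22.2% of all that name 1 gene. Judged by the probe set with the highest mean on the log2 scale, called the brightest below, 7 members stayed within 2-fold from array to array. The other two, Psmb8 and Psme1, were more than 2-fold higher on replicate 1. Of all 3402 genes measured in this way 12.4% were that much higher on replicate 1, 14.4% on replicate 2, and 26.8% in either direction, so the members' share is near the background. Their median difference was -0.21 on the log2 scale, against 0.01 over the 3402 genes.

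**Figure D1:**
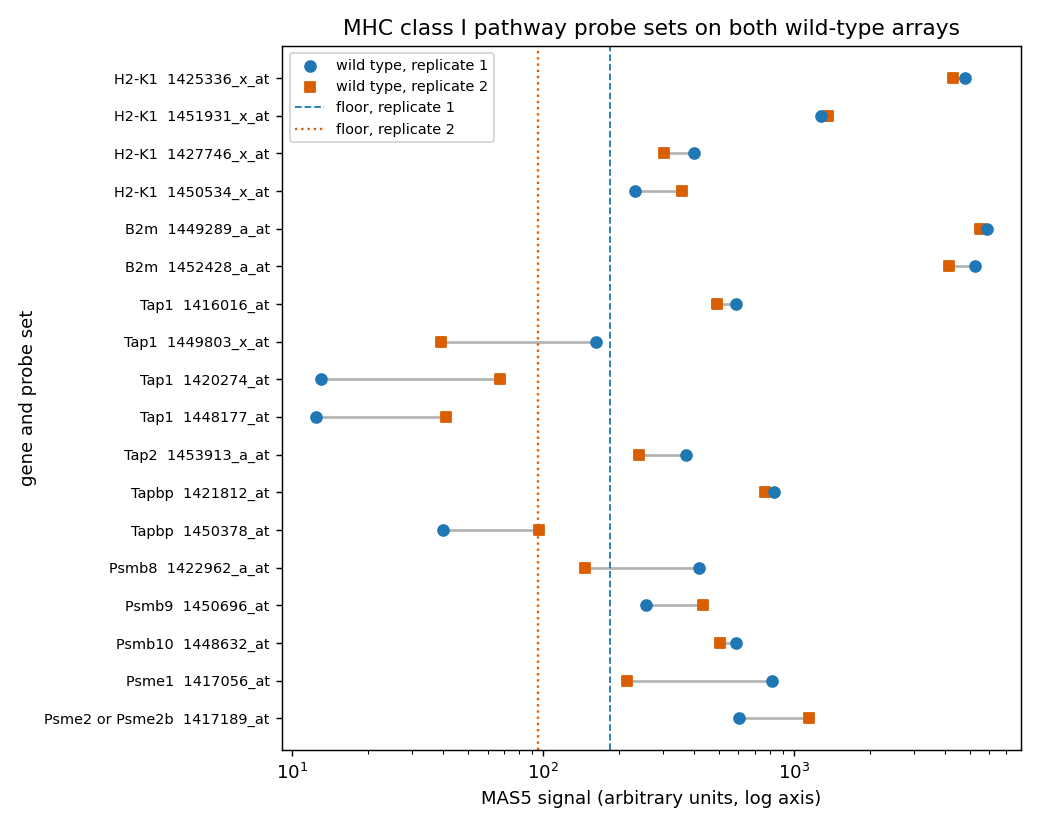
MAS5 signal (log axis) of the 17 probe sets and of the probe set shared by Psme2 and Psme2b on the 2 wild-type arrays, 1 point per array, with each array's floor as a vertical line. The 4 probe sets not above both floors, 3 of Tap1 and 1 of Tapbp, belong to genes whose brightest probe set lay above both floors.

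The class I chain genes were far above the floor by their brightest probe sets, and these lay within 2-fold between the arrays. B2m, the invariant light chain, gave 5868 on replicate 1 and 5514 on replicate 2, or 5691 ± 250.0 (SD, n = 2), a log2 difference of -0.09. Its second probe set gave 5276 and 4148, a difference of -0.35. Both were at least 28.7 times the floor on replicate 1 and 43.4 times on replicate 2. The heavy chain gene H2-K1 was measured by 4 probe sets, each above both floors and each ending in _x_at, a class whose probes can cross-hybridise with related sequences. The brightest gave 4811 and 4302, or 4556 ± 359.6 (SD, n = 2), and the next 1282 on replicate 1 and 1368 on replicate 2. The dimmer ones gave 399 and 304, and 231 and 356. Their log2 differences ran from -0.39 to 0.62, so none was 2-fold apart, but they did not share a direction. Signals for H2-K1 may include transcripts of other class I genes, and a further probe set that names both H2-K1 and H2-D1 gave 355 and 316. The log2 ratio of H2-K1 to B2m changed by -0.07 between the arrays, a value that multiplying an array by a constant does not alter, though quantile normalization does.

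The peptide transporter and tapasin were also within 2-fold. Tap1, an ATP-driven subunit of the transporter, gave 585 on replicate 1 and 493 on replicate 2, or 539 ± 64.9 (SD, n = 2). The 3 other Tap1 probe sets were below both floors, at 13.0 and 67.3, 12.4 and 41.1, and 162 and 39.1, so Tap1 rests on 1 of its 4 probe sets. Tap2, the partner subunit, had a single probe set with 372 on replicate 1 and 239.9 on replicate 2, a difference of -0.63. Tapbp gave 832 and 768, or 800.2 ± 45.0 (SD, n = 2), while its second probe set gave 39.8 and 96.5, at the floor of replicate 2 and below that of replicate 1. The log2 ratio of Tap1 to Tap2 changed by 0.39 and that of Tap1 to Tapbp by -0.13 between the arrays.

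The immunoproteasome subunits, each judged by its only probe set, differed between the arrays in both directions. Psmb10, which encodes β2i, gave 587 on replicate 1 and 507 on replicate 2, or 547 ± 56.6 (SD, n = 2). Psmb9, which encodes β1i, was lower on replicate 1, with 257 against 432 on replicate 2, a difference of 0.75. Psmb8, which encodes β5i, was higher there, with 417 against 146, a 2.86-fold difference (-1.51 on the log2 scale). On replicate 2 Psmb8 stood at 1.53 times the floor and on replicate 1 Psmb9 at 1.40 times, so both differences involve a signal near the floor. Psmb9 and Tap1, the pair with the shared promoter shown above, differed in sign as deposited, at 0.75 and -0.25. Each of these values lies within the 0.92 SD of a difference that the pooled spread gives. With median centring both were positive, at 1.38 for Psmb9 and 0.39 for Tap1.

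The largest difference among the members was that of Psme1, which encodes PA28α. It gave 816 on replicate 1 and 216 on replicate 2, or 516 ± 424 (SD, n = 2), a 3.78-fold difference (-1.92 on the log2 scale) and 2.08 times the SD of a difference. On replicate 2 it stood at 2.26 times the floor. PA28β, its partner in the ring, is encoded by Psme2, and the probe set that names Psme2 together with Psme2b went the other way, with 601 on replicate 1 and 1151 on replicate 2. The log2 ratio between these probe sets changed by -2.85 between the arrays. Whether the shared probe set measured Psme2 or Psme2b cannot be told apart. The 3′ to 5′ ratios of Actb and Gapdh, given above, were also higher on replicate 2, and their part in the differences of Psme1 and Psmb8 was not tested.

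**Figure D2:**
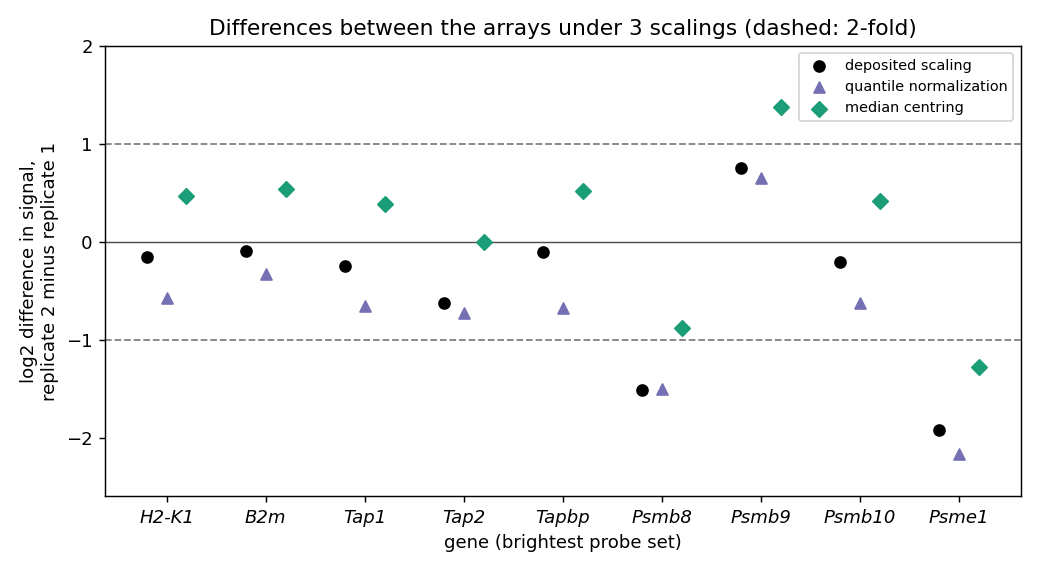
Log2 difference in signal (replicate 2 minus replicate 1) of the brightest probe set of each of the 9 measured genes under the deposited scaling, quantile normalization and median centring, with 2-fold as dashed lines. Psme1 lies beyond 2-fold under each scaling, Psmb8 under all but median centring, and Psmb9 only with median centring.

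Small differences took their sign from the scaling. The median signal over all gene probe sets was 103 on replicate 1 and 66.6 on replicate 2, so centring on it added 0.63 to every log2 difference, and the median over probe sets above the floors moved to 0.62, against -0.01 as deposited and -0.12 after quantile normalization. With median centring H2-K1, B2m, Tap1, Tapbp and Psmb10 had differences from 0.39 to 0.54, where the deposited values were from -0.25 to -0.09. Psmb9 reached 1.38 and Psmb8 dropped inside 2-fold at -0.88, while Psme1 stayed beyond it at -1.28. After quantile normalization Psme1 was at -2.17, Psmb8 at -1.50 and Psmb9 at 0.65.

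The constitutive subunits that the immunosubunits replace were less evenly measured. Psmb6, the counterpart of Psmb9, gave 385 on replicate 1 and 1083 on replicate 2 and was above both floors. Psmb5, the counterpart of Psmb8, gave 139 and 938 and was below the floor of replicate 1. Psmb7, the counterpart of Psmb10, gave 126 and 6.30 and was below both floors. Each has 1 probe set. The log2 ratio of Psmb9 to Psmb6 changed by -0.74 between the arrays. No change is given for the other pairs, since Psmb5 and Psmb7 were not above both floors.

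Beside 27.9% of all genes, 12 of 14 constitutive genes of the proteasome core (85.7%) were above the floor on both arrays. By their brightest probe sets 6 were more than 2-fold higher on replicate 2 and 0 on replicate 1, with 3 and 0 after quantile normalization and 9 and 0 with median centring. Of all 3402 genes, 490 were that much higher on replicate 2 and 421 on replicate 1 as deposited, 274 and 407 after quantile normalization, and 1200 and 84 with median centring. The 6 were Psma1 with 274 and 976, Psma2 with 733 and 1582, Psma3 with 1154 and 2553, Psma5 with 260.1 and 806, Psmb3 with 1051 and 2938, and Psmb6. On replicate 1 Psma5 stood at 1.42, Psma1 at 1.49 and Psmb6 at 2.09 times the floor, and the others at 3.99 to 6.28 times. A second probe set of Psmb3, also above both floors, gave 218 and 295. The list's median difference was 1.05 and that of the 4 measured proteasome members -0.86, with 0.41 and -1.07 after quantile normalization and 1.68 and -0.23 with median centring. No test of the difference between these lists was made. Among other activators, Psme4, which encodes PA200, gave 273 and 665 by its brightest probe set but 281 and 222 by another. Psme3, which encodes the nuclear PA28γ, gave 153 on each array and was above the floor of replicate 2 only. Pomp, an assembly chaperone, gave 819.5 on replicate 1 and 449.6 on replicate 2.

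Other class I heavy chain genes were measured unevenly. H2-D1, which encodes another classical heavy chain, had 4 of its 9 probe sets above both floors. The brightest gave 3817 on replicate 1 and 1768 on replicate 2, the next 2924 and 1091, then 706 and 366, and 317 and 309.9. The brightest was therefore 2.16-fold higher on replicate 1, where that of H2-K1 was 1.12-fold higher. With median centring the difference of H2-D1 was -0.48. Both of these probe sets end in _x_at and may take up related class I transcripts, which limits the contrast between the genes. The H2-D1 probe set with 706 and 366 does not end so. H2-M3, a non-classical molecule that presents formylated peptides, gave 549 and 788. Cd1d1, which presents lipids, gave 305 and 280.0 by its brightest probe set. Its other probe set gave 134 and 326, above the floor of replicate 2 only, and so ran the other way. In all, 3 of the 9 measured genes of this list were above both floors, or 33.3%, near the 27.9% of all genes. Several Qa and T region genes are named only by probe sets shared among them. Of these, the one for H2-Q7 and H2-Q9 gave 1356 and 1303, and that for H2-Q6 and H2-Q8 gave 1198 and 2067. The brighter for H2-T23 and a pseudogene gave 2112 and 3981, and the dimmer 83.1 and 105, above the floor of replicate 2 only. The brighter for H2-T9, H2-T10 and H2-T22 gave 785 and 647, and the dimmer 78.9 and 57.3, below both floors.

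Partners of peptide loading in the endoplasmic reticulum were above both floors in 3 of 7 cases, or 42.9%, against 27.9% of all genes. Calr, which encodes the chaperone calreticulin, had signals of 1556 on replicate 1 and 894 on replicate 2. Its other probe sets were also lower on replicate 2, by log2 differences of -1.11 and -0.61. Pdia3, the oxidoreductase bound to tapasin, gave 408 and 252. The brightest probe set of Canx, which encodes calnexin, was 3.55-fold higher on replicate 2, with 271 and 962, but the others gave 181 and 103, and 93.9 and 110.0. Erap1, the aminopeptidase that trims peptides to length, was above the floor of replicate 1 alone, with 196 and 33.7, and is named after its values were seen. Of 6 cytosolic peptidases 3 were above both floors. Tpp2 gave 261 and 231 by its brightest probe set and 202 and 127 by another above both floors. The probe sets of Npepps opposed each other, with 239.8 and 302 by the brightest and 416 and 122 by the other. Blmh was 2.61-fold higher on replicate 2, with 298 and 777.

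Among 13 measured regulators of class I genes, 8 were above both floors, or 61.5%, against 27.9% of all genes. Irf8, a factor of the B cell lineage, gave 2032 on replicate 1 and 3005 on replicate 2, with 568 and 1325 by its other probe set, and Irf1, which binds IRF repeats, 628 and 801. The NF-kB subunit gene Rela gave 841 and 749. Rfx5, a subunit of the factor that binds the X box of MHC promoters, was 2.26-fold higher on replicate 2, with 511 and 1152. Creb1 was 2.08-fold higher on replicate 1, with 238 and 114, only 1.29 and 1.20 times the floors. With median centring Creb1 was within 2-fold, at -0.42, and after quantile normalization both were, at 0.63 for Rfx5 and -0.78 for Creb1. Nlrc5, the class I transactivator, was not analysed here. Of 4 interferon receptor genes, Ifnar1 gave 359 and 401. The brightest probe set of Ifngr2 was 2.05-fold higher on replicate 1, with 237 and 116, only 1.29 and 1.21 times the floors. The other probe set of Ifngr2, whose mean is higher on the linear scale, gave 26.1 and 401 and so ran the other way.

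**Figure D3:**
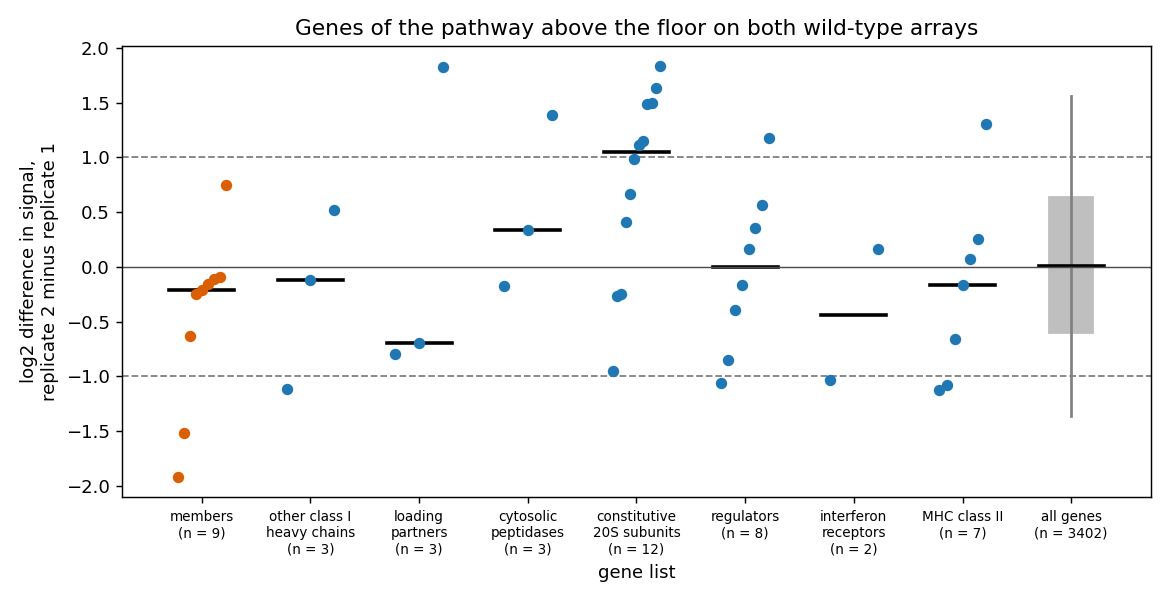
Log2 difference in signal (replicate 2 minus replicate 1) for genes whose brightest probe set was above both floors, 1 point per gene, with list medians as black bars and 2-fold as dashed lines. For all 3402 genes the box spans the 25th to 75th percentile and the whisker the 5th to 95th. The members' median is -0.21 and that of the constitutive core subunits 1.05.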

How the data were processed

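Per the labels' protocols, biotinylated cRNA was made from total RNA of sorted cells and hybridised to 2 arrays, 1 per sample. The deposited intensities are linear MAS5 signals, per the submitters' processing notes (version not given in the sources used here). Means trimmed by 2% at both ends were 150.0 and 150.1 on replicates 1 and 2, so the authors' values share a scaling target. A dimmer array thereby gets a larger factor that also multiplies its background. Detection calls were not used.

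Genes were named from the platform annotation, and all 17 member symbols matched RefSeq (GRCm38.p6) by Entrez identifier. Of 22690 probe sets, 64 controls were left out, 691 named several genes and 1555 none. Values were analysed with Python 3.11.15, pandas 2.3.3 and numpy 2.4.6. The code that counts differences was run on simulated data with large changes, bright signals and less noise than these arrays. That run checks the code only and does not measure how reliable the counts are near the floor. The brightest probe set by mean log2 signal stood for a gene. Named were all members, list genes above both floors and over 2-fold apart, the constitutive catalytic subunits, and up to 4 bright genes of each other list. Erap1, the sex-linked genes and the cell type markers Pax5, Cd79a, Cd3e, Itgax, Jchain and S100a8 were added after their values were seen. Members and lists were chosen with earlier results of these data known. No p-value was computed, and precision is limited by having 2 arrays.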

Additional observations from a re-analysis of the deposited data

How the results depend on the processing

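The alternatives were median centring, quantile normalization, log2(signal + 32), a floor at the 95th percentile, one at the median of the array, none at all, dropping probe sets that end in _x_at or in _s_at and _x_at, the mean over all probe sets of a gene or over those above the floor, and leaving out either array. Where the floor, the probe sets or the arrays changed, the number of member genes above the floor was 8 or 9 (8 without _x_at probe sets, which removes H2-K1), and on each array alone it was 9. Member probe sets above the floor numbered 12 with the floor at the 95th percentile and 13 with that at the median of the array. Without _x_at probe sets they numbered 9, and with no floor all 17 counted by definition. On replicate 2 alone there were 14 and on replicate 1 alone 13. The count of members over 2-fold apart was 2 under each alternative that keeps both arrays, but with median centring it was made up of Psme1 and Psmb9. The median difference over member probe sets ran from -0.63 with quantile normalization to 0.42 with median centring. Over its settings Psme1 ran from -2.17 to -1.28, Psmb8 from -1.51 to -0.88 and Psmb9 from 0.65 to 1.38. With the mean over all probe sets, dim ones included, Tap1 was at 0.45, Tapbp at 0.58 and the Tap1 to Tap2 ratio at 1.09. No paired analysis was possible because both samples belong to 1 group. Signals within a few times the floor limit Psme1, Psmb8, Psmb9 and Tap2.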

Other observations

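The class II pathway, through which B cells present antigen taken up from outside, was above both floors in 7 of 8 measured genes. That share was 87.5%, against 27.9% of all genes. By the probe set used, H2-Eb1 gave 5128 on replicate 1 and 4572 on replicate 2, H2-Ab1 gave 3538 and 3728, and H2-Aa 15285 and 9677. Other probe sets above both floors were lower on replicate 2, with 2379.6 and 1276, and 979 and 298, for H2-Ab1, and 1771 and 429 for H2-Aa. Cd74, which encodes the invariant chain, gave 15712 and 7422, and Ciita, the class II transactivator, 515 and 237, each more than 2-fold higher on replicate 1, though within 2-fold with median centring. H2-DMa, which edits class II peptides, was 2.47-fold higher on replicate 2, with 1072 and 2653, but only 0.58 higher on the log2 scale after quantile normalization.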
